A study of Mus musculus with 24 samples.

Results

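The sarcoplasmic reticulum, the internal calcium store of muscle fibres, was followed in the tibialis anterior muscle of mice through 10 genes, given on the array platform as CASQ1, CASQ2, ATP2A1, ATP2A2, SLN, PLN, RYR1, STIM1, ORAI1 and SLC8A3. Every probe that the platform annotation names with 1 of these symbols was taken. This gave 13 of 26423 probes, for 9 of the 10 genes. Casq1 and Stim1 had 2 probes each and Atp2a2 had 3, while the other 6 genes had 1. No probe was named RYR1, so the release channel itself is not analysed here. The genes were selected on their function with the Hira CKO against control differences of these arrays already known. Their differences are therefore given as a description, with 95% intervals and no p-values, and the limma calls on them are counted with nothing read from the count.

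Total RNA of 8 mice aged 6 weeks on a mixed C57BL6/J;129S1/SvImJ background was hybridised on 1-colour arrays, 3 arrays per animal. The 4 Hira CKO mice had the genotype Myf6 cre/+; Hira flox/-, and the 4 control mice Myf6 cre/+; Hira flox/+. Hira encodes a histone chaperone that places the variant H3.3 in chromatin, and Myf6 cre acts in differentiating and mature muscle fibres. Both groups carry the cre driver and a floxed allele, and they differ in the other allele, null in Hira CKO and intact in controls, also in cells without cre. The animal was the replicate, and its value is the mean of its 3 arrays. Nothing in the labels says whether animals shared a litter.

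Calcium is held in the sarcoplasmic reticulum by calsequestrin, leaves it through the ryanodine receptor when a fibre is excited, and is pumped back by the SERCA ATPases, which ends the contraction. Fast fibres, which dominate the tibialis anterior, use calsequestrin 1 (Casq1) and SERCA1 (Atp2a1). Calsequestrin 2 (Casq2) and SERCA2 (Atp2a2) are found in slow fibres and in heart. Sarcolipin (Sln) and phospholamban (Pln) are small membrane proteins that restrain the pump. When the store runs low, STIM1 in its membrane opens the ORAI1 channel of the plasma membrane, and sodium-calcium exchangers such as the product of Slc8a3 move calcium out across that membrane.

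The promoters of the calsequestrin pair are shown because their probes differed in unlike ways between the groups. They run 5′ to 3′ along the gene, from 250 bases before to 50 after the start, and come from RefSeq with the build GRCm38.p6, where 8 of the 10 genes were matched. Casq2 lies at chr3:102086165-102086464 on the plus strand and Casq1 at chr1:172219846-172220145 on the minus strand. Capitals mark a MEF2 motif in Casq2 and the letters CAGCTG, an E-box bound by myogenic factors, in Casq1. Both motifs were searched on both strands and their matches here do not overlap.
Casq2: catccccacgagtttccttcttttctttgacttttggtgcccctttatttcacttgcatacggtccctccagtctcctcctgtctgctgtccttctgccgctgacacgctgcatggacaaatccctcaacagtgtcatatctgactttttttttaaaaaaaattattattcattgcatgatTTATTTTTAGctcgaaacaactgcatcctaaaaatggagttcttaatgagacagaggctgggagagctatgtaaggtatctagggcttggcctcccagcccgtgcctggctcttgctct
Casq1: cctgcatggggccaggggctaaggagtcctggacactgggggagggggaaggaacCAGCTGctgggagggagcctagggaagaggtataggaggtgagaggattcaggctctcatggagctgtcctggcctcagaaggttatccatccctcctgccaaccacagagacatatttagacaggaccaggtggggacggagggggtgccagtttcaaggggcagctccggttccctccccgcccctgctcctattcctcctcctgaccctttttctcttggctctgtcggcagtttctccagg

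The MEF2 match of Casq2 began at position −69 from the start, and such a match was present in 3.19% of 32851 promoters of that length. The E-box match of Casq1 began at position −195, and CAGCTG was present in 16.3% of the same promoters. Among the other matched genes, Atp2a1, Pln, Orai1 and Slc8a3 each held 1 CAGCTG in this window, and Ryr1 and Stim1 held neither motif. No CArG box, bound by serum response factor, was found in any of the 8 windows, against 1.63% of all promoters. A match describes the letters of the window and was not set against any binding data.

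The deposited intensities had nearly the same distribution on every array, with array medians between 431.5 and 433.5. Repeat arrays of an animal correlated at 0.989 or more. The Hira probe itself read 614, 553, 524 and 543 in Hira CKO, against 569, 472, 467 and 473 in control, a difference of 0.17 log2 with a limma adjusted p of 0.193. Its position relative to the deleted part is not given in the sources used here, so it does not check the group labels. Muscle fibre markers were bright in every animal, with a summed intensity of 5 of 7 listed genes (Ckm, Acta1, Tnnt3, Actn3 and Mb) of 844880 to 894067 in Hira CKO and 882268 to 1037970 in control. Of these 5 genes, Acta1 (skeletal actin) and Ckm (muscle creatine kinase) passed the test, both lower in Hira CKO. Of all genes at their brightest probe, 10.3% passed as lower. Bright genes were also left out of the muscle fibre sum after seeing the data. Without Tnnt3 the sum did not overlap, at 610506 to 637478 in Hira CKO and 648171 to 776110 in control. Without Ckm it overlapped, at 653826 to 688928 in Hira CKO and 666180 to 770336 in control. Heart muscle markers summed over 4 of 7 genes lay at 1633 to 1852 in Hira CKO and 1581 to 1980 in control. In whole muscle, fewer cells of a type and less RNA per cell cannot be told apart.

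Casq2, the brightest probe of Atp2a2, Sln and Slc8a3 read higher in all 4 Hira CKO animals than in any control animal, and Stim1 read lower at its brighter probe. Atp2a1, Pln and Orai1 overlapped between the groups. The groups did not overlap at 6 of the 13 probes, against 24.8% of all probes. In the limma fit over all probes, 7 of the 13 were past an adjusted p of 0.05, against 20.6% of all probes. Since the genes were chosen with this contrast known, nothing is read from these counts. The 7 became 4 without control animal 3, where 13.9% of all probes passed, and 8 without control animal 1, where 19.4% did. These were the extremes when single animals were left out. The median difference was 0.21 log2 over the 13 probes and 0.01 log2 over all probes.

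**Figure D1:**
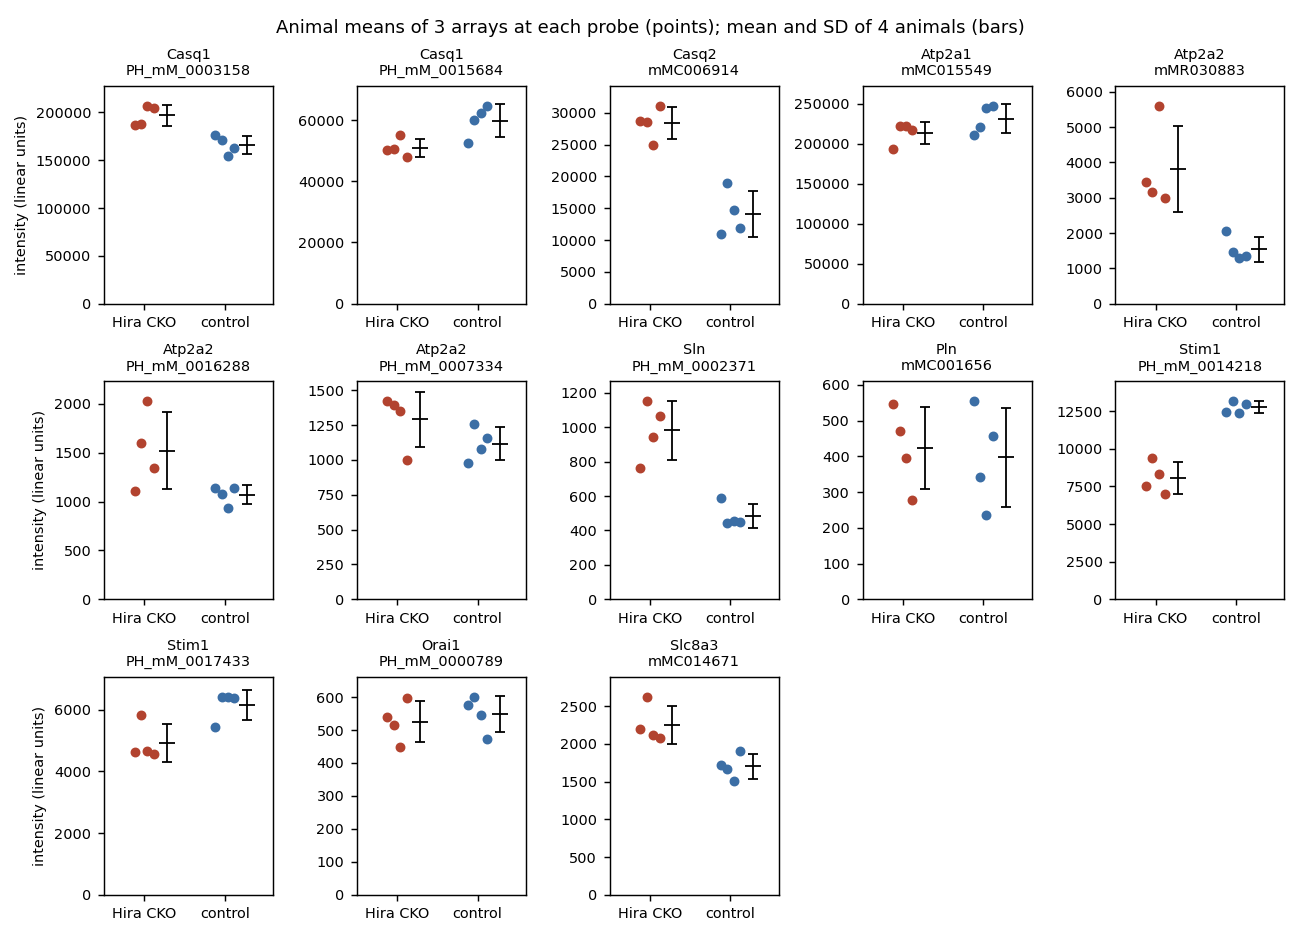
Intensity (linear units, axis from 0) at each of the 13 probes, with 4 Hira CKO animals on the left and 4 control animals on the right of each panel; points are means of 3 arrays and bars are the mean and SD of 4 animals. Casq2, Sln, Slc8a3, the probe mMR030883 of Atp2a2, the probe PH_mM_0003158 of Casq1 and the probe PH_mM_0014218 of Stim1 have no overlap between the groups.

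Calsequestrin 2, the isoform of slow fibres and heart, was higher in Hira CKO. Casq2 read 28639, 28529, 24998 and 31138 in the 4 Hira CKO animals, against 10913, 19011, 14716 and 11888 in the control animals. The lowest Hira CKO animal was above the highest control animal, and the same was true of single arrays, where the lowest of 12 Hira CKO arrays read 23712 and the highest of 12 control arrays 22015. The mean was 28326 ± 2525 in Hira CKO and 14132 ± 3631 in control (SD, n = 4 each), a difference of 1.03 log2 (95% interval 0.68 to 1.38). Control animals were more spread, with an SD of 0.35 log2, than Hira CKO animals, with 0.13 log2. The SD between arrays of an animal was 0.10 log2. The difference ranged from 0.92 log2 without control animal 1 to 1.18 log2 without control animal 2.

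Calsequestrin 1 gave opposite directions at its probes. At the brighter probe, PH_mM_0003158, it read 186632, 188391, 207230 and 204979 in Hira CKO, against 175973, 171593, 154046 and 162723 in control. These groups did not overlap, and the difference was 0.25 log2 (95% interval 0.08 to 0.41). At the second probe, PH_mM_0015684, Casq1 read 50260, 50617, 55080 and 47872 in Hira CKO, against 52368, 59926, 62315 and 64736 in control. Here Hira CKO was lower by mean, with 1 Hira CKO animal above the lowest control animal, and the difference was −0.23 log2 (95% interval −0.42 to −0.04). No single direction is therefore given for Casq1. At the brighter probe single arrays overlapped, with 3 of 12 Hira CKO arrays above every control array. The difference there was 0.33 log2 on the first arrays of the animals, 0.27 log2 on the second and 0.14 log2 on the third. Deviations of the animals from their group means were not alike at the Casq1 probes, with a Pearson correlation of −0.37 over 8 animals.

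Set within each animal, the log2 value of Casq2 minus that of the brighter Casq1 probe was −2.71, −2.72, −3.05 and −2.72 in Hira CKO, against −4.00, −3.18, −3.38 and −3.77 in control. All Hira CKO animals were above all control animals, and the mean shift was 0.79 log2. Its size depends on the Casq1 probe used, since the second one differed by −0.23 log2 and was left out here. Such a value within an animal shows unequal change of these probes and not the ratio of the transcripts, because probes differ in how they bind.

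**Figure D2:**
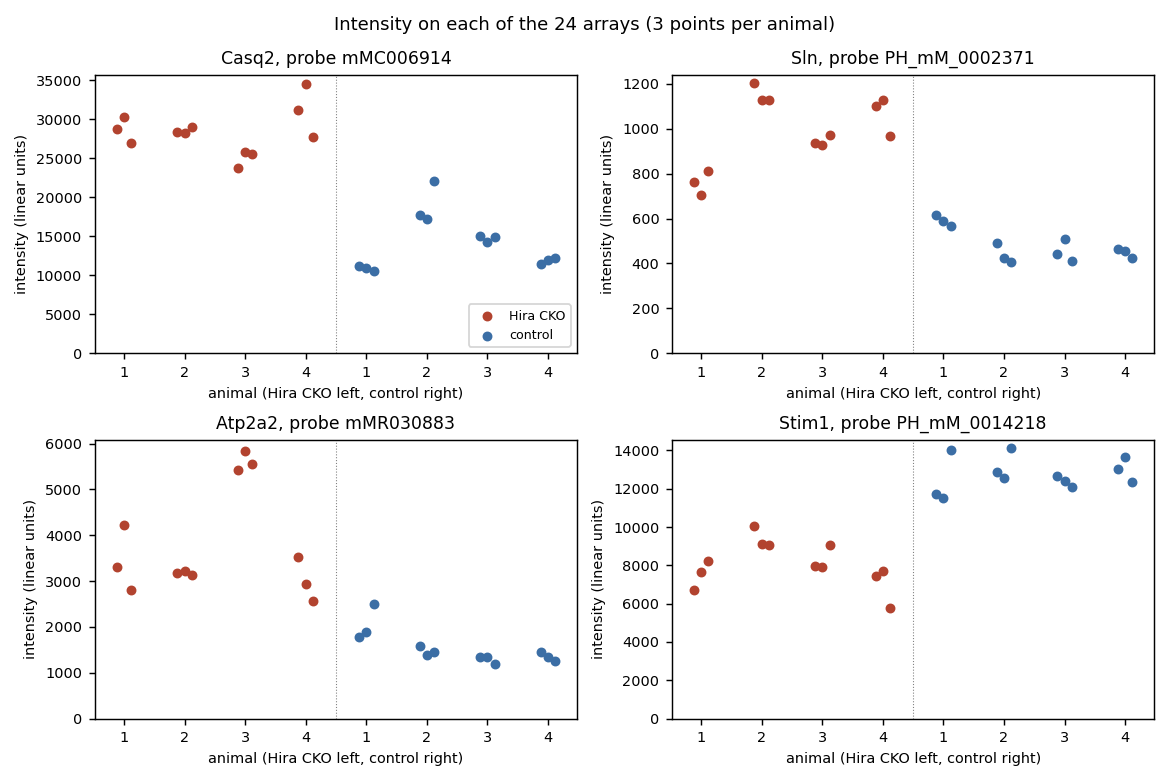
Intensity (linear units, axis from 0) on each of the 24 arrays for Casq2, Sln and the brightest probes of Atp2a2 and Stim1, with 3 points for each animal, Hira CKO animals on the left and control animals on the right of the dotted line. In each panel all 12 Hira CKO arrays lie on 1 side of all 12 control arrays.

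The fast calcium pump did not separate the groups. Atp2a1 read 193026, 221721, 221509 and 216770 in Hira CKO, against 211360, 220283, 244850 and 247713 in control. The groups overlapped, and the difference was −0.13 log2 (95% interval −0.32 to 0.07). On single arrays the range was 129840 to 245246 in Hira CKO and 210208 to 272180 in control. Hira CKO animal 1 was the lowest of its group, and without it the difference was −0.07 log2. The probe is among the brightest on the array, whose highest value was 439069.7 in every file column, and no saturation call came with the values. The lack of a saturation call also limits the brighter Casq1 probe, whose animal means ran from 154046 to 207230 over both groups.

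The slow calcium pump was higher in Hira CKO at the brightest of its probes and less so at the others. At the probe mMR030883, Atp2a2 read 3449, 3176, 5611 and 3007 in Hira CKO, against 2058, 1476, 1297 and 1346 in control. Hira CKO animal 3 was far the highest and control animal 1 the highest of its group, yet no value of the groups overlapped, on animals or on single arrays. The difference was 1.27 log2 (95% interval 0.81 to 1.73), and 1.06 log2 without Hira CKO animal 3.

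At the probe PH_mM_0016288, Atp2a2 read 1108, 1601, 2028 and 1345 in Hira CKO, against 1135, 1078, 933 and 1138 in control. Hira CKO animals 2, 3 and 4 were above every control animal and animal 1 lay among them, for a difference of 0.47 log2 (95% interval 0.11 to 0.83), which was 0.32 log2 without Hira CKO animal 3. At the probe PH_mM_0007334 the readings were 1422, 1394, 1348 and 1001 in Hira CKO and 975, 1258, 1076 and 1155 in control. The groups overlapped through Hira CKO animal 4, and the difference was 0.21 log2 (95% interval −0.07 to 0.49). It was 0.32 log2 without that animal. All 3 probes had a higher mean in Hira CKO, but the size ran from 0.21 to 1.27 log2. Animals deviated together at the first and second of these probes, with a correlation of 0.68 over 8 animals, and not at the first and the last, with 0.06.

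The animal that stood out for the slow pump also stood out for slow troponins, which were looked up after their values were seen. Tnnt1, slow troponin T, read 2209, 2342, 5002 and 2235 in Hira CKO, against 2718, 1870, 1590 and 1526 in control. Tnni1, slow troponin I, read 2435, 2584, 4509 and 2036 in Hira CKO, against 3153, 2784, 2401 and 2282 in control. Tnnc1, the slow and cardiac troponin C, read 4253, 3959, 6587 and 3631 in Hira CKO, against 5562, 5466, 4516 and 4509 in control. Hira CKO animal 3 was the highest of all 8 animals at each of these genes, and control animal 1 the highest control animal. The groups overlapped at all 3, and none passed the limma test, with adjusted p of 0.177 for Tnnt1, 0.854 for Tnni1 and 0.562 for Tnnc1. The other measured slow sarcomere gene, Tpm3, did not share this pattern. It read 11226, 9722, 9973 and 12998 in Hira CKO, against 13173, 14688, 13875 and 14624 in control. There Hira CKO animal 3 was below every control animal, and control animal 1 was the lowest control animal. For Casq2, Hira CKO animal 3 was the lowest of its group and control animal 1 the lowest of all 8 animals. The part of slow fibre content in the Atp2a2 and Casq2 values was not tested.

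**Figure D3:**
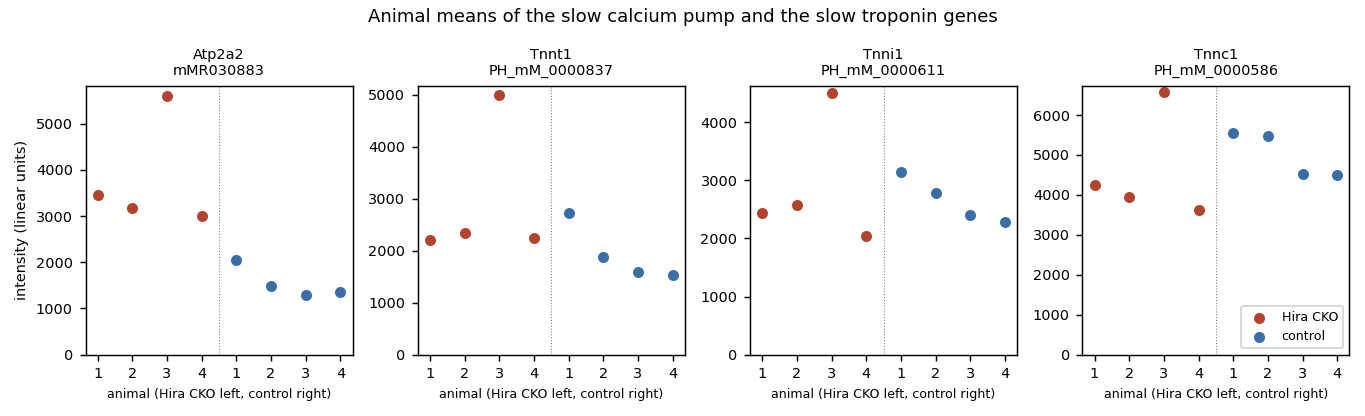
Animal means (intensity in linear units, axes from 0) of the Atp2a2 probe mMR030883 and of the slow troponin genes Tnnt1, Tnni1 and Tnnc1, with Hira CKO animals on the left and control animals on the right of the dotted line. Hira CKO animal 3 is the highest animal in every panel, and the groups are apart for Atp2a2 alone.

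Of the pump's small regulators, sarcolipin was higher in Hira CKO and phospholamban did not separate the groups. Sln read 760, 1152, 946 and 1066 in Hira CKO, against 590, 440, 455 and 448 in control. Every Hira CKO animal and every one of its 12 arrays was above all control values, the lowest Hira CKO array at 706 and the highest control array at 615. The mean was 981 ± 170 in Hira CKO and 483 ± 71.3 in control (SD, n = 4 each), a difference of 0.99 log2 (95% interval 0.68 to 1.30), with 0.91 to 1.11 log2 when 1 animal was left out. Control animal 1 was again the highest control animal.

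Pln read 548, 470, 396 and 278 in Hira CKO, against 555, 341, 237 and 457 in control. Animals of both groups were spread over the same range, with an SD of 0.40 log2 in Hira CKO and 0.51 log2 in control, while arrays of 1 animal differed by an SD of 0.13 log2. The difference was 0.11 log2 (95% interval −0.46 to 0.69), and it turned to −0.10 log2 without control animal 3 and to −0.02 log2 without Hira CKO animal 1. At this spread any difference within that interval, 0 included, remains compatible with the readings, so no direction is given for Pln. Pln in both groups and Sln in control animals read close to the array median, and no detection calls came with the values.

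**Figure D4:**
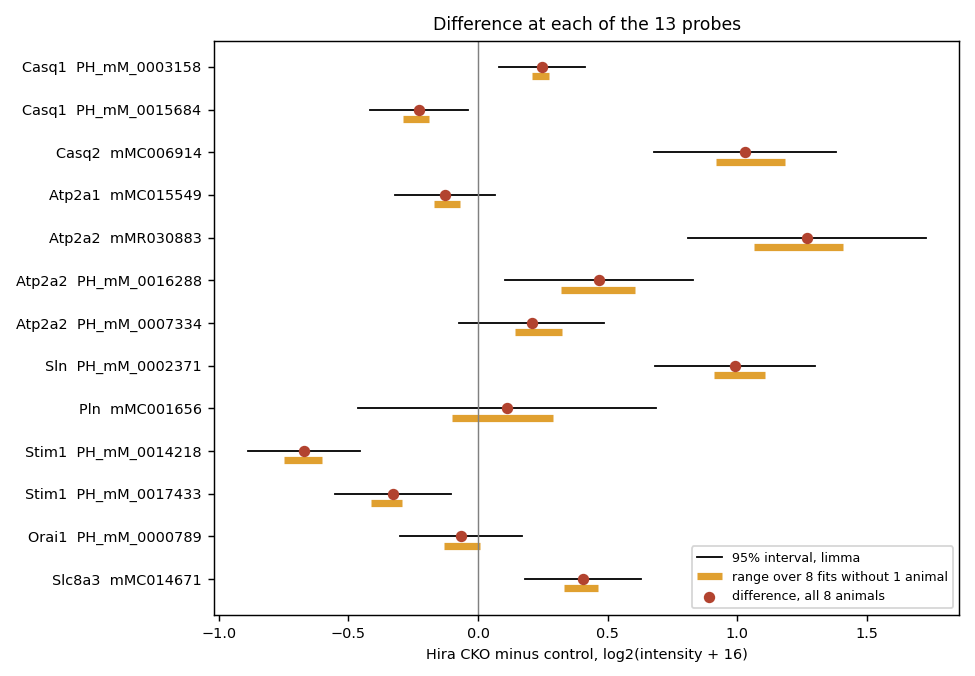
Hira CKO minus control difference on the log2(intensity + 16) scale at each of the 13 probes, with its 95% interval from limma (line) and the range over 8 fits that left out 1 animal (bar). Casq2, Sln and the first Atp2a2 probe lie near or above 1, both Stim1 probes lie below 0, and the Casq1 probes lie on opposite sides of 0.

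The store sensor STIM1 was lower at both of its probes. At PH_mM_0014218, Stim1 read 7534, 9404, 8325 and 6978 in Hira CKO, against 12422, 13177, 12397 and 13007 in control. All 12 Hira CKO arrays were below all 12 control arrays, the highest Hira CKO array at 10031 and the lowest control array at 11539. The difference was −0.67 log2 (95% interval −0.89 to −0.46), with −0.75 to −0.60 log2 when 1 animal was left out.

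At PH_mM_0017433, Stim1 read 4642, 5844, 4651 and 4552 in Hira CKO, against 5437, 6409, 6425 and 6373 in control. Here Hira CKO animal 2 overlapped control animal 1, and the difference was −0.33 log2 (95% interval −0.55 to −0.10). The animals deviated from their group means alike at both Stim1 probes, with a correlation of 0.77 over 8 animals, and Hira CKO animal 2 was the highest of its group at both.

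The channel that STIM1 opens did not separate the groups. Orai1 read 540, 515, 448 and 598 in Hira CKO, against 577, 602, 545 and 474 in control, a difference of −0.06 log2 (95% interval −0.30 to 0.17). The sign turned on the first arrays alone (0.03 log2) and without Hira CKO animal 3 (0.01 log2).

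The exchanger gene Slc8a3 was higher in Hira CKO. It read 2191, 2626, 2121 and 2079 in Hira CKO, against 1723, 1671, 1509 and 1902 in control. The groups did not overlap, although the gap between the lowest Hira CKO animal and the highest control animal was small, and 11 of 12 Hira CKO arrays were above every control array. The difference was 0.41 log2 (95% interval 0.18 to 0.63), with 0.33 log2 without Hira CKO animal 2 as the smallest value when 1 animal was left out.

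Stim1, Orai1 and Atp2a2 are also active in vessel and immune cells, whose markers were read from the same animals. For the counts below, 11.0% of all genes at their brightest probe were higher and 10.3% lower past the limma threshold. The groups did not overlap at 24.8% of all single probes. Endothelial markers, summed over 6 of 6 genes, lay at 31821 to 37499 in Hira CKO and 43258 to 56119 in control, with 1 gene higher and 3 lower past the limma threshold. Smooth muscle and pericyte markers, over 7 of 8 genes, lay at 34667 to 41192 in Hira CKO and 42995 to 54931 in control, with 0 higher and 2 lower. Lymphocyte markers, over 4 of 5 genes, lay at 1983 to 2160 in Hira CKO and 1501 to 1699 in control, with 3 higher and 0 lower. These 3 sums did not overlap between the groups, but the first of them rested on Egfl7 and the second on Smtn, as found when bright genes were left out after seeing the data. Without Egfl7 the endothelial sum was 14251 to 16538 in Hira CKO and 15297 to 17700 in control, and without Smtn the smooth muscle and pericyte sum was 19269 to 25930 in Hira CKO and 22797 to 33244 in control, so that both overlapped. The lymphocyte sum stayed apart without Cd79b and also without Cd3e. The part of vessel and immune cells in the Stim1 and Atp2a2 values was not tested. The summed macrophage markers over 5 of 5 genes (3088 to 4310 in Hira CKO, 3240 to 5275 in control), adipocyte markers over 4 of 4 (37113 to 46385 in Hira CKO, 35537 to 61023 in control) and Schwann cell markers over 2 of 4 (4152 to 5055 in Hira CKO, 3910 to 6773 in control) overlapped. Of the macrophage genes 1 was higher and 1 lower past the threshold. Cx3cr1, a chemokine receptor, read 55.8, 57.4, 59.9 and 68.9 in Hira CKO, against 200.6, 241.0, 222.4 and 204.5 in control, and fell by 1.61 log2 (limma adjusted p 4.84e-06). Itgam, an integrin of myeloid cells, rose by 0.40 log2 (limma adjusted p 0.0373), with groups that overlapped. No adipocyte or Schwann cell marker passed. No detection calls came with the values, so no marker can be said to be absent. The smooth muscle markers Cnn1 and Tagln were dim and averaged 47.6 and 141 in Hira CKO, and 44.4 and 146 in control. The 2 genes of that list past the threshold were brighter. Rgs5 averaged 1152 in Hira CKO and 2476 in control, and fell by 1.11 log2 (limma adjusted p 0.0137). Smtn averaged 14881 and 19757, and fell by 0.41 log2 (limma adjusted p 0.0185).

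Around these members, 74 of 89 other genes of calcium handling and fibre type were measured, each taken at its brightest probe. In the limma fit 4 of the 74 rose and 7 fell in Hira CKO. Over all 17742 genes at their brightest probe, 11.0% rose and 10.3% fell. The median difference was −0.05 log2 over the 74 genes and 0.01 log2 over all genes.

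Of 22 measured genes of the triad, the release channel's partners and proteins inside the store, 0 rose and 5 fell, with a median of −0.15 log2. Calr, calreticulin, a calcium-binding chaperone of the reticulum, read 346, 365, 255 and 331 in Hira CKO, against 1382, 1670, 1851 and 1544 in control, and fell by 2.26 log2 (SE 0.12, limma adjusted p 4.84e-06). The groups were far apart, at the single Calr probe. Tmem38a, the TRIC-A potassium channel of the muscle reticulum, read 61704, 64962, 65706 and 58101 in Hira CKO, against 96030, 101635, 102228 and 103611 in control, and fell by 0.69 log2 (SE 0.07, limma adjusted p 0.000188). Jph2, a junctophilin that ties the reticulum to the plasma membrane, fell by 0.46 log2 (limma adjusted p 0.014). Fkbp1a, the calstabin bound to the release channel, fell by 0.38 log2 (limma adjusted p 0.0108). These 4 calls held in each of the 8 fits that left out 1 animal.

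The fifth, Cacnb1, the beta subunit of the voltage sensor, was named after its values were seen. It fell by 0.33 log2 at its brightest probe (limma adjusted p 0.0448), where the groups overlapped and the call was lost without any of Hira CKO animals 1, 2 or 3 or control animals 1, 2 or 3. A second Cacnb1 probe fell by 0.64 log2 (limma adjusted p 0.0136), with groups that did not overlap and a call lost in 0 of the 8 fits without 1 animal. The last Cacnb1 probe changed by −0.26 log2 without passing (limma adjusted p 0.105). The other voltage sensor gene Cacna1s (−0.17 log2), the luminal partners Trdn (0.25), Asph (−0.26), Hrc (−0.21) and Srl (−0.03), and the triad gene Jph1 (−0.20) did not pass.

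Of 9 measured pump regulators and cytosolic buffers 0 rose and 0 fell, among them Mrln, the micropeptide myoregulin (0.21 log2), Atp2a3, the third SERCA gene (0.01), and Pvalb, the calcium buffer parvalbumin of fast fibres (−0.05). Of 12 measured genes of store-operated entry and inositol trisphosphate receptors 3 rose and 0 fell. Itpr2 rose by 0.40 log2 (limma adjusted p 0.034) and Itpr1 by 0.35 (limma adjusted p 0.0484), both release channels that open on inositol trisphosphate. Saraf, which turns store-operated entry down, rose by 0.27 log2 (limma adjusted p 0.0265). The groups did not overlap for any of the 3, but each call was lost in several of the fits that left out 1 animal. Calls over all probes also fell in those fits, from 2783 higher and 2649 lower to 1841 to 2634 higher and 1817 to 2499 lower. The call of Itpr2 was lost without Hira CKO animals 1 or 3 or control animals 2 or 4. That of Itpr1 was lost without Hira CKO animals 1, 2 or 4 or control animals 1, 2 or 4, and that of Saraf without Hira CKO animals 2 or 4 or control animals 1, 2 or 4. The count of 3 became 0 without control animal 2 or control animal 4. Stim2 (−0.16 log2), Orai2 (0.07) and Orai3 (−0.05), the paralogues of Stim1 and Orai1, did not pass.

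Of 13 measured genes of plasma membrane and mitochondrial calcium transport 1 rose and 1 fell. Atp2b1, a plasma membrane calcium pump, read 3382, 4019, 3097 and 3066 in Hira CKO, against 5017, 5267, 5578 and 5667 in control, and fell by 0.67 log2 (limma adjusted p 0.00127). Its second probe changed by −0.21 log2 and did not pass (limma adjusted p 0.174). Micu2, a gatekeeper of the mitochondrial calcium uniporter, read 9081, 8799, 10537 and 11112 in Hira CKO, against 7672, 6301, 5886 and 6363 in control, and rose by 0.58 log2 (limma adjusted p 0.0041). Both calls held in all 8 fits that left out 1 animal. The exchanger paralogues Slc8a1 (−0.38 log2) and Slc8a2 (0.15), the uniporter pore Mcu (−0.16) and Atp2b4 (0.68) did not pass. Without control animal 2 the counts were 2 higher and 2 lower, and without Hira CKO animal 4 there were 2 higher.

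Of 10 measured calcineurin and NFAT genes, the calcium-dependent phosphatase and its targets, 0 rose and 0 fell, with Ppp3r1 at 0.69 log2, Rcan1 at 0.11 and Nfatc1 at −0.05. Of 4 measured slow sarcomere genes 0 rose and 1 fell, namely the slow tropomyosin gene Tpm3 by 0.37 log2 (limma adjusted p 0.027). The call of Tpm3 was lost without any of Hira CKO animals 1, 2 or 3 or control animals 2, 3 or 4. Of 4 measured fast sarcomere genes 0 rose and 0 fell, with differences from −0.10 to 0.17 log2.

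**Figure D5:**
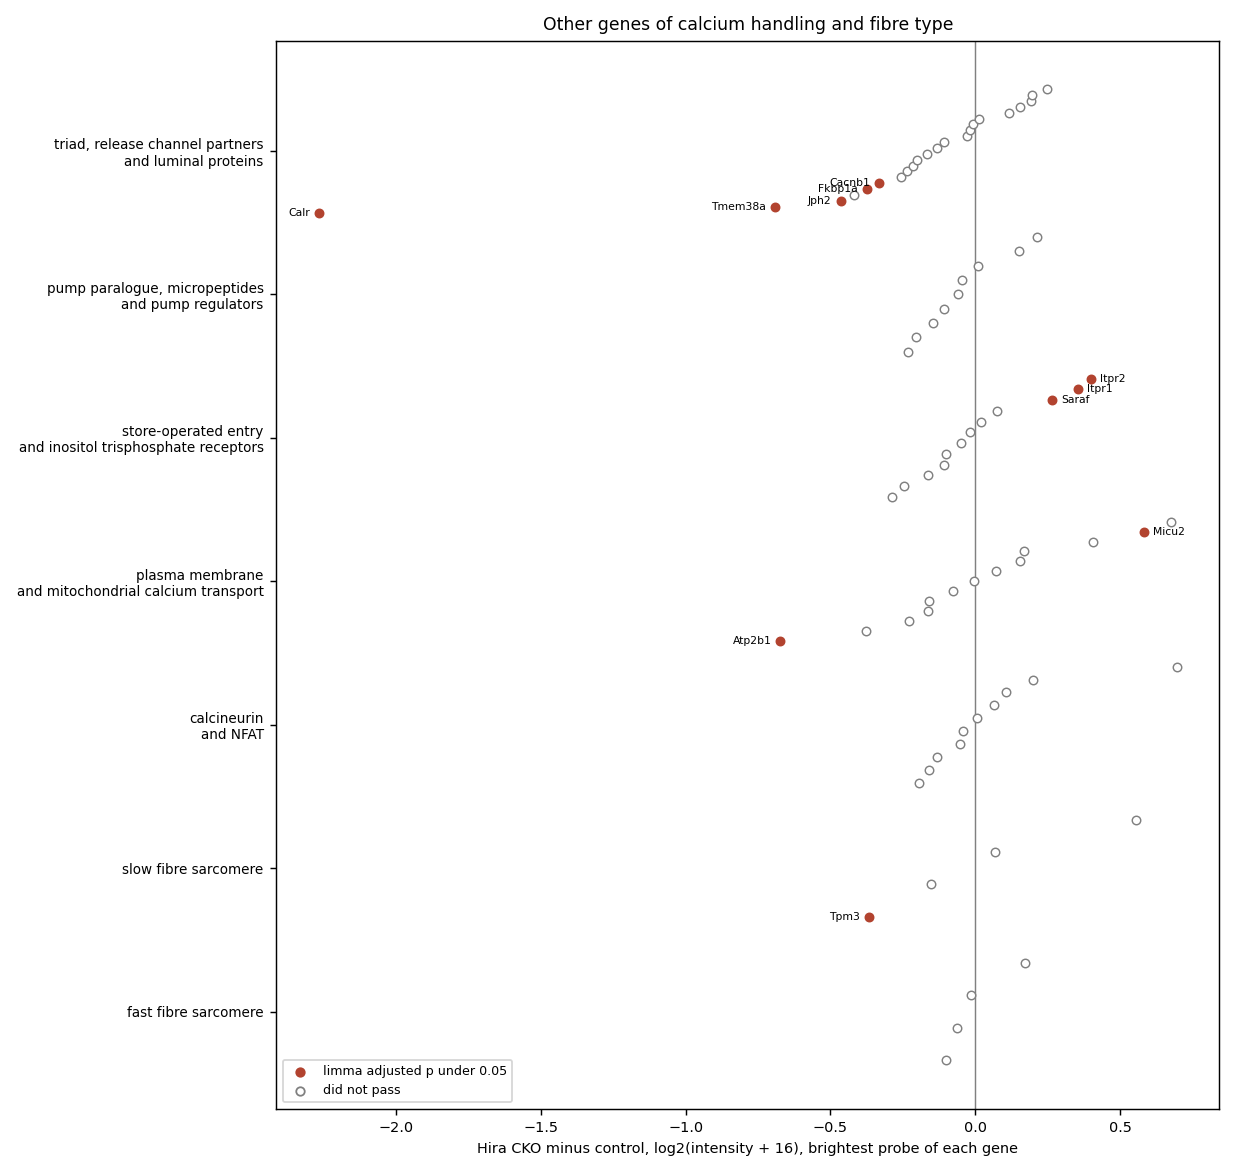
Hira CKO minus control difference (log2(intensity + 16)) of 74 other genes of calcium handling and fibre type at their brightest probe, grouped by list; filled points passed a limma adjusted p of 0.05 over all probes and are named. In the triad list the filled points lie below 0, and in the list of store-operated entry and inositol trisphosphate receptors above 0.

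The probes most like each member in how animals deviated from their group means were taken from 11298 named probes above the median intensity, over 8 animals. Casq2 was nearest to Dmpk, the myotonic dystrophy kinase (Pearson correlation 0.99), and Reep5 (0.99). Atp2a2 at its brightest probe was nearest to Lig1 (0.99) and Tnnt1 (0.98). Sln was nearest to Ctsb (0.94) and Ccr2 (0.92), Stim1 to Aldh4a1 (0.97) and Cep170b (0.96), and the brighter Casq1 probe to Mrps10 (0.96) and Mrpl10 (0.95). These are the highest of many correlations over few animals that share their arrays, and they were not tested.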

How the data were processed

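Cy5-labelled total RNA (5 micrograms) of 8 muscles was hybridised in triplicate, per the labels' protocols. The deposited table holds a linear intensity for 26423 probes on 24 arrays. The authors' normalization between arrays shows in the deposited values, since the maximum was equal on every array and 81.1% of values were whole multiples of 1/24 (within 0.024 of that unit). Another 50 values were 0 or negative. Scanner, software, slide and scan date: not given in the sources used here. A batch of arrays therefore cannot be told apart from the groups. The number of animals, 4 in each group, limits the precision.

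Negative values were raised to 0 and log2(intensity + 16) was computed. Differences are on that scale, where changes of dim probes come out too small. Log2 values were averaged over an animal's 3 arrays. Hira CKO was set against control with lmFit and eBayes of limma 3.58.1 (R 4.3.3). P-values were adjusted by Benjamini-Hochberg across the 26423 probes, and 0.05 was the threshold. The fit was tested on simulated data. Intensities are means of an animal's 3 arrays.

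The platform annotation names a single gene for 20377 probes. Of these symbols 18213 were current in the RefSeq table of GRCm38.p6, 2126 were updated as synonyms and 38 were kept, for 17742 genes. The members and lists were chosen with earlier results of these data known. The text names all members, Hira, up to 4 genes of each list with the largest difference among those past the threshold at their brightest probe, and for 5 members the 2 probes most alike in deviations from group means. Genes outside this rule are given as values or said to be named after their values were seen.

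Alternatives were other pseudocounts (1 and 50), array median centring, quantile normalization again, the lowest 30% of probes left out, a random animal block over all 24 arrays, single arrays, linear averaging, a block for animal number, trended and robust variance, array weights, each animal left out, and the probe with the smallest p for each list gene. Figures were drawn with matplotlib 3.10.9.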

Additional observations from a re-analysis of the deposited data

Results flagged for a closer look

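Of 182 groups of 4 animals examined over 91 probes, 14 held an animal whose gap to its neighbour took an unusually large share of the group's range on the log2 scale (Dixon's ratio above its 95% critical value for 4 values). Chance gives such a flag in about 1 of 20 groups. Among the 26 groups of member probes there were 5. Atp2a1 was low in Hira CKO animal 1 (193026, others 216770 to 221721, ratio 0.839). The Atp2a2 probe PH_mM_0007334 was low in Hira CKO animal 4 (1001, others 1348 to 1422, ratio 0.853). Sln was high in control animal 1 (590, others 440 to 455, ratio 0.894). The Stim1 probe PH_mM_0017433 was high in Hira CKO animal 2 (5844, others 4552 to 4651, ratio 0.904) and low in control animal 1 (5437, others 6373 to 6425, ratio 0.952).

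The other 9 were outside the members. In control animal 1, Hira was high (569, ratio 0.938) and Tnnt3 low (234100, ratio 0.852). In Hira CKO animal 3, Tnnt1 was high (5002, ratio 0.928) and Nfatc3 low (1805, ratio 0.851). In Hira CKO animal 4, Cacnb1 at its brightest probe (11074, ratio 0.865) and Camk2d (253, ratio 0.92) were high. Smdt1 was high in Hira CKO animal 2 (6369, ratio 0.886). Trpc4 was high in control animal 2 (2049, ratio 0.968) and Orai2 low in control animal 4 (61.2, ratio 0.889).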

How the results depend on the processing

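Of 286 values of the 13 member differences under other settings, 284 moved by less than 1 SD between animals and 2 moved by more, both at the brighter Casq1 probe on single arrays (0.33 log2 on the first arrays and 0.14 on the third). The sign turned in 2 settings each for Pln and Orai1 and in none for the other 11 probes. With the animal number as a replicate block 2505 probes were higher and 2420 lower in Hira CKO, against 2783 and 2649 without it. Deviations of same-numbered animals correlated at 0.296, 0.093, −0.0643 and 0.0673, and 3 of 8 animals correlated best with their own number, so the numbers are not taken as pairs. Under the block 1 gene of store-operated entry and inositol trisphosphate receptors was higher and 1 lower, and 1 calcineurin and NFAT gene was higher. On the first arrays alone 1522 probes were higher and 1669 lower, 3 triad genes were lower and 1 calcineurin gene was higher. On the second arrays these were 1269 and 1579 probes, with 0 store-operated entry genes higher and 0 slow sarcomere genes lower. On the third they were 1577 and 1547, with 3 triad genes lower, 1 store-operated entry gene higher, 0 calcium transport genes higher and 0 slow sarcomere genes lower. With all 24 arrays and the animal as a random block 1 triad gene was higher and 8 lower, 1 store-operated entry gene was lower, and 1 calcineurin and 1 slow sarcomere gene were higher. With array weights 8 triad genes and 1 store-operated entry gene were lower and 1 calcineurin gene was higher. At the probe with the smallest p 1 triad gene was higher, 1 pump regulator gene and 1 store-operated entry gene were lower, and 2 calcium transport genes and 1 calcineurin gene were higher. The cause of these shifts was not tested. Over fits that left out 1 animal, 1841 to 2634 probes were higher and 1817 to 2499 lower. Triad genes ranged from 0 to 1 higher and 4 to 6 lower, store-operated entry genes from 0 to 3 higher and 0 to 1 lower, calcium transport genes from 1 to 2 in each direction, calcineurin genes from 0 to 1 higher and slow sarcomere genes from 0 to 1 lower. Of 396 values of other named probes, 343 kept direction and side of the threshold, 48 lost their call, 3 gained one and 2 turned sign. Both were Tnni1, which passed under neither: −0.17 log2 without Hira CKO animal 3 and −0.000804 without control animal 4, within a range up to 0.21 log2 without Hira CKO animal 4. The member count past the threshold was 4 on the first or the third arrays alone. On those arrays 12.1% and 11.8% of all probes passed, against 20.6% in the main fit.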
